A study of Mus musculus with 58 samples.

Results

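The genes described here are 10 kinesins that work on the mitotic spindle, Kif11, Kif14, Kif15, Kif18b, Kif20a, Kif20b, Kif22, Kif23, Kif2c and Kif4, followed through all RNA-seq libraries of a study of caloric restriction (CR) in mouse hematopoietic stem cells (HSCs). They were taken by symbol from a named list of mitotic motors, and all 10 were present among the 55376 gene symbols of the count files. The study asked how lifelong and short-term CR, and a return to free feeding, change HSCs, and whether lowering the receptors Kdr and Bmpr1a in aged HSCs bears on the same programme. RNA was sequenced from 34 libraries, and ATAC-seq (6 libraries), H3K4me3 and H3K27me3 ChIP-seq (2 libraries each) and PU.1 ChIP-seq (6 libraries) of old HSCs were used alongside.

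The diet groups were wild-type male C57BL/6 mice, and HSCs were sorted from bone marrow as LSK cells that lacked CD34 and Flk2 and carried CD150. Old mice, 24 to 26 months of age, had eaten freely all their lives (OAL, 4 libraries), had been on 40% CR since young adulthood (OCR, 4 libraries), or had been returned to free feeding for 4 weeks after lifelong CR (OCRRF, 2 libraries). Young mice, 3 to 4 months of age, had eaten freely (YAL) or had been through 4 weeks of CR, milder at first and then 40% (YCR). Others had been refed for 4 weeks after such a CR (YCRRF), and each young group had 4 libraries. The knockdown libraries came from aged HSCs transduced with lentivirus and transplanted into irradiated young female recipients, so these cells had been cultured, infected and regrown in a young host before they were sorted again. That later sort took donor LSK cells that lacked CD48 and carried CD150, and its gate did not use CD34 or Flk2. A GFP vector carried the Kdr shRNA (KdrKD, 4 libraries) or a scrambled shRNA (KdrScr, 2 libraries), and the double knockdown added an mCherry vector with 1 of 2 Bmpr1a shRNAs (DoubleKD, 2 libraries per shRNA, treated as 1 arm of 4) against a scrambled pair of vectors (DoubleScr, 2 libraries). Libraries held 23497989 to 34385179 counts in old mice, 11102898 to 36579392 in young mice and 35657999 to 44780217 after transplantation. The study counts its diet replicates as mice, but the labels number libraries without naming animals, so the p-values measure the spread between libraries.

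Kinesins are motors that move along microtubules or take them apart at their ends, and a subset of the family is made mainly by dividing cells, which need it to build the spindle, move chromosomes and cut the cell into daughters. Messenger RNAs of these motors are usually low in resting cells and accumulate through S phase, G2 and mitosis. Most HSCs in an adult marrow are at rest, so their bulk RNA carries little of these transcripts, and in bulk libraries more cells in cycle cannot be told apart from more transcript per cell.

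Levels are given as CPM, read counts scaled to the library total, after TMM scaling, computed jointly over the 22 diet libraries and, separately, over the 12 transplanted libraries. A gene was called when edgeR's quasi-likelihood test gave a Benjamini-Hochberg adjusted p under 0.05 over all genes tested and the fold change was over 1.2. A second, looser rule used an unadjusted p under 0.05 with the same fold change; it took as many members as that p alone in every comparison except KdrKD versus KdrScr. All 10 kinesins passed the filter on low counts in every comparison.

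Lifelong CR was accompanied by higher levels of all 10 kinesins in HSCs. All 10 were called higher in OCR than in OAL, where 5.57% of the 27150 genes tested were called and 2.54% were called higher. The 10 log2 fold changes ran from 0.61 to 2.06 with a median of 1.34, beside a median of 0.02 over all genes. For all 10, each OCR library lay above each OAL library, a separation seen for 4.24% of all genes. Summed over the family, the level was 124 to 145 CPM in the OAL libraries and 255 to 337 CPM in the OCR libraries. Among the OCR libraries, replicates 1 and 2 exceeded replicates 3 and 4 for every member except Kif23. With TMM factors from genes of at least 5 CPM the split of calls over all genes went from 689 higher and 822 lower to 894 higher and 698 lower, with 10 members called.

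The pair of motors that push spindle poles apart, Kif11 and Kif15, rose together. Kif11, which crosslinks and slides antiparallel microtubules, stood at 12.8, 14.7, 17.8 and 12.9 CPM in the OAL libraries, 44.4, 55.1, 43.4 and 38.2 CPM in the OCR libraries and 13.0 and 13.7 CPM in the OCRRF libraries. Every OCR library was far above every OAL library, and both OCRRF libraries lay inside the OAL range. The log2 fold change of Kif11 in OCR versus OAL was 1.65 (SE 0.12, edgeR adjusted p = 5.86e-10). Kif15, which helps to keep a spindle bipolar once it has formed, measured 8.10, 7.67, 8.69 and 7.67 CPM in OAL, 25.8, 25.8, 21.3 and 17.3 CPM in OCR and 10.2 and 11.3 CPM in OCRRF. OAL libraries hardly differed from each other, OCR libraries were all higher, and the OCRRF pair lay between the groups. Its log2 fold change in OCR versus OAL was 1.51 (SE 0.14, edgeR adjusted p = 8.64e-09).

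The largest changes belonged to Kif18b and Kif2c, which act on microtubule plus ends and shorten microtubules. Kif18b, a regulator of astral microtubules, was at 3.16, 5.89, 5.77 and 4.75 CPM in OAL, 19.8, 24.0, 19.2 and 17.5 CPM in OCR and 4.85 and 5.17 CPM in OCRRF. All 4 OCR libraries lay far above the OAL and OCRRF libraries, which overlapped each other. The gene rose 4.18-fold in OCR versus OAL, or 2.06 on the log2 scale (SE 0.16, with an adjusted p of 1.42e-09 in edgeR). Kif2c, a depolymerase that helps to correct faulty attachments at kinetochores, stood at 4.02, 3.45, 5.87 and 3.59 CPM in OAL, 18.3, 20.6, 14.1 and 14.8 CPM in OCR and 4.76 and 5.74 CPM in OCRRF. The OCRRF libraries fell within the OAL range again. The rise of Kif2c in OCR was 4.06-fold (log2 2.02, SE 0.17, edgeR adjusted p = 3.32e-09).

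The chromosome-bound motors Kif4 and Kif22 rose as well, with estimates below those of Kif11 and Kif15. Kif4, which binds chromosome arms and later the central spindle, measured 9.48, 9.15, 8.05 and 9.98 CPM in OAL, 25.9, 26.8, 20.1 and 21.0 CPM in OCR and 9.02 and 8.61 CPM in OCRRF. Kif22, which pushes chromosome arms away from the poles, measured 13.0, 14.7, 16.4 and 14.1 CPM in OAL, 40.3, 42.8, 30.5 and 28.5 CPM in OCR and 13.3 and 16.3 CPM in OCRRF. In both genes all 4 OCR libraries lay above the OAL and OCRRF libraries, and the OCRRF values fell inside the OAL range. Log2 fold changes in OCR versus OAL were 1.37 for Kif4 (SE 0.13, with an edgeR adjusted p of 2.04e-08) and 1.31 for Kif22 (SE 0.13, edgeR adjusted p = 3.05e-08). On the opposite strand, exons of Pdzd11 cover 15.1% of the Kif4 exon bases and those of Gm31749 cover 1.96% of the Kif22 exon bases. Whether counting used strand is not given in the sources used here, so both levels are uncertain to that extent.

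Kif14, Kif20a, Kif20b and Kif23, which work at the central spindle or in cytokinesis, had the 4 smallest log2 fold changes, while Kif4, which also binds the central spindle, was not among them. Kif23, the motor subunit of the centralspindlin complex, which it forms with Racgap1, was at 19.0, 23.3, 21.1 and 23.7 CPM in OAL, 34.7, 42.6, 33.5 and 34.9 CPM in OCR and 22.4 and 20.5 CPM in OCRRF. Kif20a, which brings the chromosomal passenger complex to the central spindle, was at 33.4, 34.4, 38.4 and 32.5 CPM in OAL, 51.2, 59.5, 48.0 and 50.5 CPM in OCR and 32.8 and 30.7 CPM in OCRRF. For both, the 4 OCR libraries were above all OAL and OCRRF libraries, by a smaller margin than for Kif11 or Kif18b. Kif20b, a motor needed late in cytokinesis, was at 18.4, 17.5, 19.2 and 16.9 CPM in OAL, 39.9, 33.9, 26.8 and 27.0 CPM in OCR and 16.1 and 18.5 CPM in OCRRF. Kif14, which works with citron kinase at the midbody, had the lowest counts of the family, at 2.27, 3.01, 3.21 and 2.83 CPM in OAL, 6.36, 6.35, 6.30 and 5.49 CPM in OCR and 3.43 and 5.36 CPM in OCRRF. Kif14 was the only member besides Kif15 with both OCRRF libraries above all OAL libraries. Log2 fold changes in OCR versus OAL were 1.13 for Kif14 (SE 0.19, edgeR adjusted p = 0.000126), 0.84 for Kif20b (SE 0.12), 0.76 for Kif23 (SE 0.11) and 0.61 for Kif20a (SE 0.0955, edgeR adjusted p = 7.24e-05). Exons of Cdc23 on the opposite strand cover 29.3% of the Kif20a exon bases, so the Kif20a level is uncertain in the same way. Cdc23 itself was at 128 to 142 CPM in the OAL libraries and 125 to 156 CPM in the OCR libraries, which overlapped. The part of its reads in the Kif20a values was not tested.

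**Figure D1:**
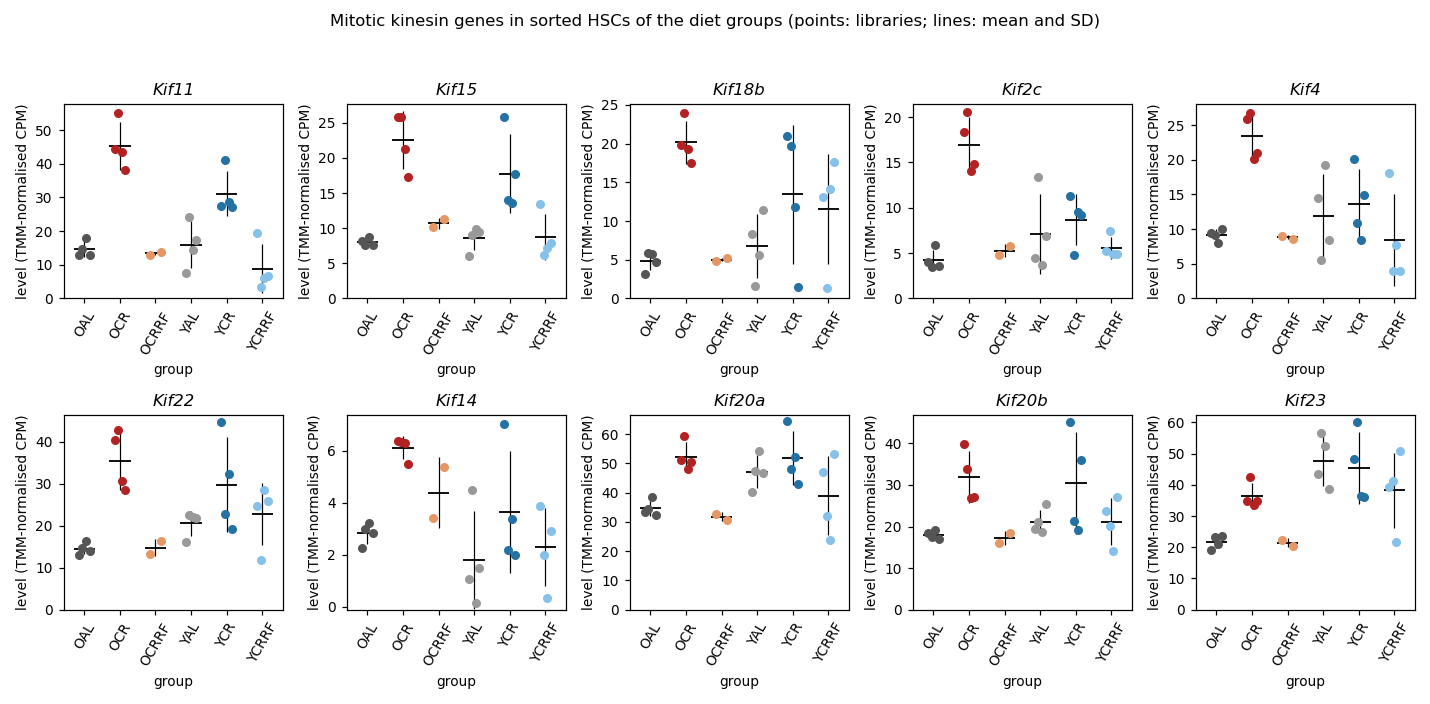
Level of each mitotic kinesin gene in TMM-normalised CPM (vertical axis) in the 6 diet groups (horizontal axis), with 1 point per library and lines for the mean and SD. In every panel the 4 OCR points lie above the 4 OAL points and the 2 OCRRF points, while the young groups are spread more widely.

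Refeeding was followed by lower levels. In OCRRF versus OCR, 9 of the 10 kinesins were called lower, where 3.41% of 32577 genes were called and 2.71% were called lower. The median log2 fold change of the members was -1.23, beside 0.11 over all genes. For all 10, both OCRRF libraries lay below every OCR library, a separation seen for 10.8% of all genes with so few libraries. Kif18b fell by 2.07 on the log2 scale (SE 0.19, edgeR adjusted p = 1.85e-09), Kif11 fell by 1.82 (SE 0.16) and Kif2c fell by 1.76 (SE 0.20). Kif14 was not called, at -0.55 on the log2 scale (SE 0.24, with an adjusted p of 0.236 in edgeR). These values share the OCR libraries with the comparison above. With TMM factors from genes of at least 5 CPM the all-gene median moved to 0.24 and the split of calls from 226 higher and 884 lower to 341 higher and 573 lower. DESeq2 gave 190 higher and 2162 lower, and the count of 1110 calls depended on single libraries, at 352 without OCRRF replicate 1, 522 without OCRRF replicate 2, 622 without OCR replicate 2 and 2755 without OCR replicate 3, with 9 members called each time.

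Marker lists also moved after refeeding. In OCRRF versus OCR, with genes named after their values were seen, 3 of 14 erythroid markers rose (Hba-a1, Hba-a2 and Hbb-bs) and 2 fell (Car2 and Epor), 1 of 7 megakaryocyte markers rose (Vwf) and 3 fell (Gp9, Itga2b and Pf4), and Ly6a rose and Kit fell among 15 stem cell markers. EdgeR called 0 of 5 multipotent progenitor markers (1 at an unadjusted p under 0.05, and 1 by DESeq2) and 0 of 11 granulocyte-monocyte markers (1 and 0), and it called 1 of 10 lymphoid and plasma cell markers (5 and 0). Erythroid sums, with Car2 the most abundant gene, were 1675, 1600.5, 1384 and 1555 CPM in OCR and 1097 and 1297 CPM in OCRRF. Megakaryocyte sums over 8 markers, led by Vwf, were 662, 865, 791 and 707 CPM in OCR and 949 and 822 CPM in OCRRF. Granulocyte-monocyte sums were 607 to 655 CPM in OCR and 721 and 717 CPM in OCRRF. Lymphoid sums were 37.1 to 45.3 CPM in OCR and 52.7 and 46.9 CPM in OCRRF. For both lists every OCRRF library lay above every OCR library. Stem cell sums were 5032 to 5844 CPM in OCR and 5186 and 5162 CPM in OCRRF. No marker of these lists was at 0 in an OCR or OCRRF library. The part of these markers in the kinesin result was not tested.

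After refeeding, no kinesin was called against lifelong free feeding. In OCRRF versus OAL edgeR called 4.14% of 31816 genes and 0 of the 10 members, and DESeq2 also called 0. The looser rule took 2 members, Kif14 (log2 fold change 0.62, SE 0.25) and Kif15 (0.40, SE 0.15), both estimated higher and free of overlap, beside 20.1% of all genes by that rule and 22.8% higher in every library. The other 8 estimates ran from -0.14 (Kif20a and Kif11) to 0.30 (Kif2c, SE 0.24), and the member median was -0.012 beside 0.12 over all genes. Scaling mattered here: with TMM factors from genes of at least 5 CPM the all-gene median became 0.26, the calls went from 528 higher and 788 lower to 754 higher and 54 lower, and the estimates of Kif11, Kif20a, Kif20b, Kif23 and Kif4 changed sign. The balance moved the other way with DESeq2 (892 higher and 3014 lower) and with DESeq2 size factors in edgeR (849 higher and 2366 lower). Calls over all genes numbered 1316, against 38 without OCRRF replicate 1, 62 without OCRRF replicate 2, 250 without OAL replicate 1, 101 without OAL replicate 2, 386 without OAL replicate 3 and 201 without OAL replicate 4, with 0 members called each time. The looser rule took 0 members without OCRRF replicate 2, 1 without OAL replicate 1 and 3 without OAL replicate 3.

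Marker lists differed between OCRRF and OAL, with genes named after their values were seen. EdgeR called 5 of 15 stem cell markers, all lower, with sums of 5186 and 5162 CPM in OCRRF and 5837 to 6565 CPM in OAL. Of 14 erythroid markers Ermap and Rhag rose and Car2 fell (sums of 1097 and 1297 CPM in OCRRF and 1526 to 1866 CPM in OAL), Gp9 fell among 7 megakaryocyte markers tested (sums over 8 markers of 949 and 822 CPM and 764 to 1007 CPM), and Mpo rose among 11 granulocyte-monocyte markers (721 and 717 CPM and 656 to 799 CPM). EdgeR called 0 of 5 multipotent progenitor markers (2 at an unadjusted p under 0.05, and 2 by DESeq2) and 0 of 10 lymphoid and plasma cell markers (8 and 2). Multipotent progenitor sums were 215 and 231 CPM in OCRRF and 238 to 285 CPM in OAL, without overlap. Of 14 S phase genes Gins2, Mcm3, Mcm7 and Pcna fell (8 called by DESeq2), with sums of 909 and 978 CPM in OCRRF and 1070.0 to 1206 CPM in OAL. These counts by list were not recomputed with the other scaling factors, and the part of these lists in the kinesin values was not tested.

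**Figure D2:**
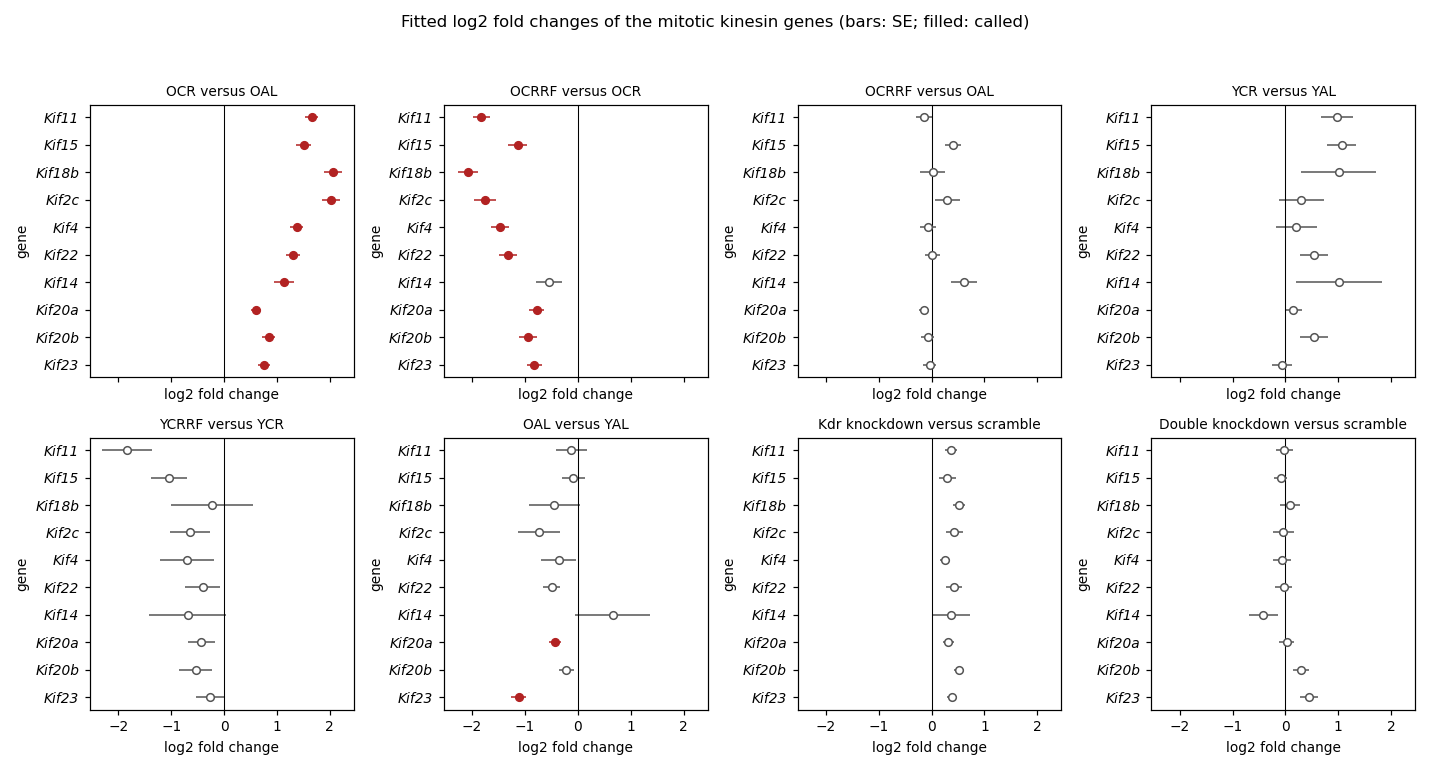
Fitted log2 fold change (horizontal axis) of each mitotic kinesin gene (vertical axis) in 8 comparisons, with bars for the SE and filled points for genes called by edgeR. All 10 points are filled in OCR versus OAL, 9 in OCRRF versus OCR and 2 in OAL versus YAL.

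After short-term CR in young mice no kinesin was called by edgeR, and young libraries of a group were scattered. In YCR versus YAL edgeR called 0.364% of 18680 genes and 0 members (1 without the filter on low counts), while DESeq2 called 2 members, Kif11 and Kif15. The looser rule took the same 2, beside 3.52% of all genes taken as higher, and it took 2 to 4 members when single libraries were left out. Over all genes the 68 calls became 6 to 27 without any 1 library. Kif15 was at 6.03, 9.04, 9.86 and 9.38 CPM in the YAL libraries, 25.8, 14.0, 13.6 and 17.7 CPM in the YCR libraries and 13.5, 6.24, 7.20 and 7.94 CPM in the YCRRF libraries. All 4 YCR libraries lay above all 4 YAL libraries, a separation seen for 2.49% of genes, and YCR replicate 1 was the highest. Its log2 fold change in YCR versus YAL was 1.06 (SE 0.27, edgeR adjusted p = 0.175). Kif11 was at 7.62, 24.3, 14.5 and 17.4 CPM in YAL, 27.5, 41.1, 28.8 and 27.1 CPM in YCR and 19.4, 3.24, 6.14 and 6.57 CPM in YCRRF. YCR libraries were again above the others, and 3 of the 4 YCRRF libraries were below every YAL library. The log2 fold change of Kif11 was 0.98 in YCR versus YAL (SE 0.31, edgeR adjusted p = 0.311).

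The other 8 kinesins overlapped between YAL and YCR. Kif18b, which separated the old groups so widely, was at 8.33, 1.64, 5.55 and 11.5 CPM in YAL, 21.0, 19.6, 11.8 and 1.45 CPM in YCR and 13.2, 1.37, 14.1 and 17.6 CPM in YCRRF. Each young group held 1 library under 2 CPM for this gene, and the groups overlapped. Kif23 was at 43.5, 56.5, 52.4 and 38.7 CPM in YAL, 48.3, 60.3, 36.4 and 36.1 CPM in YCR and 39.2, 41.2, 21.8 and 50.7 CPM in YCRRF, with no order between the groups, and it was the only member with a YCR estimate below 0 (log2 -0.064, SE 0.20). Kif14 was at 1.06, 4.50, 0.148 and 1.48 CPM in YAL and 7.02, 2.19, 3.37 and 1.98 CPM in YCR. SEs of the log2 fold change reached 0.81 for Kif14 and 0.70 for Kif18b, against 0.19 and 0.16 in OCR versus OAL. The member median in YCR versus YAL was 0.54, beside 0.0017 over all genes, with 9 of 10 estimates above 0.

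After young refeeding edgeR called no kinesin. YCRRF replicate 3 stood apart from the rest of its group: the chi-square per degree of freedom over genes, which grows with depth, was 153 to 336 between it and the other YCRRF libraries and 23.4 to 56.5 between all other pairs within a young group. In YCRRF versus YCR edgeR called 0.0102% of 19535 genes and 0 members (1 without the filter on low counts), and DESeq2 called 1 member, Kif11. The looser rule took Kif11 (log2 -1.84, SE 0.47) and Kif15 (-1.04, SE 0.34), both lower and without overlap, beside 3.28% of all genes taken as lower by that rule and 2.53% lower in every library. It took 1 member without YCR replicate 1 and 3 without YCR replicate 2, YCRRF replicate 1 or YCRRF replicate 4. All 10 estimates were below 0, with a median of -0.59. In YCRRF versus YAL edgeR called 0 of 19334 genes, a share of 0%, and DESeq2 called 15. Neither tool called a member, and the looser rule, which took 3.65% of all genes, took 0 members (2 without YCRRF replicate 1). The estimates ran from -0.85 for Kif11 (SE 0.53) to 0.78 for Kif18b (SE 0.71). Without YCRRF replicate 3, edgeR called 6 genes and 0 members in YCRRF versus YCR, with 2 members taken by the looser rule, and 0 genes in YCRRF versus YAL, with 0 members taken.

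Marker sums were uneven among the young libraries, and edgeR called 0 markers of any list in the 3 young comparisons. In YCR versus YAL an unadjusted p under 0.05 was reached by 5 of 15 stem cell markers (3 called by DESeq2), 2 of 5 multipotent progenitor (0), 2 of 13 erythroid (1), 4 of 6 megakaryocyte (3), 0 of 11 granulocyte-monocyte (0) and 3 of 7 lymphoid and plasma cell markers tested (2). In YCRRF versus YCR these counts were 5 of 15 (1), 1 of 5 (0), 4 of 13 (0), 3 of 6 (2), 4 of 11 (0) and 4 of 7 (2), and in YCRRF versus YAL 0 of 15, 0 of 5, 5 of 14, 0 of 6, 1 of 11 and 3 of 7, with 0 by DESeq2. Summed over 10 lymphoid and plasma cell markers, the level was 180.2, 90.5, 114 and 107 CPM in the YAL libraries and 78.8, 1218, 1400.2 and 629 CPM in the YCR libraries. Igkc was the most abundant of them in YCR replicates 2, 3 and 4, at 628, 928 and 316 CPM, and 1 to 4 of the 10 markers had no count in a YCR library. YCRRF libraries were at 54.7, 82.5, 50.9 and 45.9 CPM for this list, with 1 to 5 markers at 0. Summed over 11 granulocyte-monocyte markers, with Lyz2 the most abundant, the level was 858, 574, 1036 and 1023 CPM in YAL, 819, 600.1, 519 and 734 CPM in YCR and 1076, 1866, 1431 and 812 CPM in YCRRF. The stem cell sum was 6111 to 6489 CPM in YAL, 5639 to 6262 CPM in YCR and 6889.6, 6509.9, 5408 and 6564 CPM in YCRRF, where replicate 3 was the lowest. Erythroid sums, led by Car2, were 1633 to 1876 CPM in YAL, 1692.5 to 2115 CPM in YCR and 1428 to 1691.8 CPM in YCRRF, so that every YCRRF library lay below every YCR library, the nearest pair by under 1 CPM. Megakaryocyte sums over 8 markers were 518 to 655 CPM in YAL, 524 to 564 CPM in YCR and 563 to 693 CPM in YCRRF, and multipotent progenitor sums were 327 to 376, 369 to 438 and 321 to 383 CPM. All members except Kif11 and Kif23 were highest in YCR replicate 1, the YCR library with the lowest lymphoid sum. The part of these markers in the young results was not tested.

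Whether the response to CR differed with age was tested in 1 fit of the old and young groups. All 10 members were estimated to respond more in old mice, with a median difference of 0.73 on the log2 scale, but edgeR called 0 of them, where 0.0318% of 28328 genes were called. DESeq2 called 1, Kif23. The looser rule took 5 members, beside 3.85% of all genes taken as higher: Kif2c (difference 1.72, SE 0.49), Kif4 (1.16, SE 0.43), Kif23 (0.82, SE 0.23), Kif22 (0.77, SE 0.30) and Kif20a (0.46, SE 0.18). Kif14 had the smallest difference, 0.12 (SE 0.84). EdgeR called 2 of 10 lymphoid and plasma cell markers (4 at an unadjusted p under 0.05, and 2 by DESeq2). Neither tool called a marker of the other lists. An unadjusted p under 0.05 was reached by 6 of 15 stem cell, 3 of 14 erythroid and 2 of 7 megakaryocyte markers tested. It was reached by 0 of 5 multipotent progenitor and 0 of 11 granulocyte-monocyte markers. The part of these markers in the difference was not tested. Old and young mice also differed in the duration of CR, so age and duration cannot be told apart. Old libraries held counts for 42071 to 46646 genes against 22209 to 33496 in young libraries, and the part of this in the difference was not tested.

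Under free feeding, 2 cytokinesis motors were called lower in old HSCs, and the call of Kif20a depended on the processing. In OAL versus YAL, edgeR called 14.8% of 23525 genes and 7.93% as lower, and among the members Kif23 and Kif20a fell. These 2 calls among 10 members were not tested against those shares. The OAL libraries held counts for 42071 to 43972 genes and the YAL libraries for 25936 to 28713, a difference that coincides with age. Its part in the lower levels was not tested. Kif20a was at 40.4, 47.4, 54.3 and 46.7 CPM in the YAL libraries, and the YAL values of Kif23 and the OAL values of both are given above. On the log2 scale Kif23 changed by -1.12 (SE 0.14, with an edgeR adjusted p of 0.00103), and Kif20a by -0.43 (SE 0.12, with an edgeR adjusted p of 0.0315). Cdc23, whose exons overlap those of Kif20a, fell by 0.42 in the same comparison (SE 0.11, with an edgeR adjusted p of 0.0267), so a fall of Kif20a and reads from Cdc23 cannot be told apart. The OAL libraries of Kif23 and Kif20a lay below all YAL libraries, a separation seen for 12.3% of genes. Kif22 came close to the threshold (-0.49, SE 0.16, edgeR adjusted p = 0.0577), and DESeq2 called it as well. Kif14 was the only member with an estimate above 0 (0.66, SE 0.71). The call of Kif20a was lost without OAL replicate 1, 2 or 4 (edgeR adjusted p = 0.0980, 0.0858 and 0.103), and Kif22 was called without YAL replicate 1 (edgeR adjusted p = 0.0173). Kif20a also lost its call when the replicate number was fitted as a block. With TMM factors from genes of at least 5 CPM the all-gene median moved from 0.045 to 0.16, the calls from 1620 higher and 1866 lower to 1872 higher and 784 lower, the estimate of Kif15 changed sign and Kif20a lost its call (edgeR adjusted p = 0.0968). DESeq2 gave 2857 higher and 1897 lower, and without the filter on low counts edgeR gave 4485 higher and 2186 lower, around an all-gene median of 1.07. The 3486 calls became 1475 without OAL replicate 1, 1810.0 without OAL replicate 2, 1840.0 without OAL replicate 3, 1546 without OAL replicate 4 and 5357 without YAL replicate 4.

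Marker lists differed between OAL and YAL too, again with genes named after their values were seen. All 5 multipotent progenitor markers fell, with sums of 327 to 376 CPM in YAL and 238 to 285 CPM in OAL. Of 14 erythroid markers Alas2 rose and Car1, Epor, Ermap and Klf1 fell (sums of 1633 to 1876 CPM in YAL and 1526 to 1866 CPM in OAL), and of 11 granulocyte-monocyte markers Prtn3 rose and Ctsg, Ly6c2 and Mpo fell (574 to 1036 and 656 to 799 CPM). Of 7 megakaryocyte markers tested Gp6, Itga2b and Vwf rose (sums over 8 markers of 518 to 655 and 764 to 1007 CPM), edgeR called 2 of 15 stem cell markers, 1 higher and 1 lower (6111 to 6489 and 5837 to 6565 CPM), and of 10 lymphoid and plasma cell markers 3 rose and 4 fell (90.5 to 180.2 and 39.8 to 264 CPM). The part of these lists in the lower kinesin levels was not tested.

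Levels of different kinesins can be compared only per length of transcript. Divided by the union of exon bases, Kif20a, whose exons are shared with Cdc23 as given above, was highest and Kif14 lowest in all 6 diet groups and in the transplanted groups. In OAL, Kif20a stood at 8.00 ± 0.602 CPM per kb (SD, n = 4), far above Kif22 (2.97 ± 0.283), Kif23 (2.76 ± 0.272) and Kif20b (2.59 ± 0.143). Kif23 differed from either neighbour by less than its own SD, whereas Kif22 and Kif20b differed by more than the SD of either. At the low end Kif15 (0.729 ± 0.0442) lay within the spread of Kif2c (0.970 ± 0.256), while Kif14 (0.273 ± 0.0390) lay below both. In OCR, Kif20a stood at 12.1 ± 1.15 CPM per kb, followed by Kif22 (7.25 ± 1.44), Kif11 (6.07 ± 0.953) and Kif18b (5.64 ± 0.771), which overlapped within their SDs. Kif11 held the fifth place in OAL and the third place in OCR, and Kif18b the seventh and the fourth. In the transplanted groups Kif11 held the second place, at 12.9 ± 1.04 CPM per kb in KdrScr (SD, n = 2) and 16.7 ± 1.70 in KdrKD (SD, n = 4). Kif22 followed, at 12.3 ± 0.404 in KdrScr and 16.5 ± 3.11 in KdrKD. In KdrScr, KdrKD, DoubleScr and DoubleKD it differed from Kif11 by less than the SD of Kif11, so their order was not resolved.

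Members varied together, most of all in old mice. Over the 22 diet libraries the median Pearson correlation of log2 CPM among the 45 pairs was 0.54, and it was 0.28 after group means were removed. Over the 10 old libraries the median was 0.95 (0.74 to 0.98), and over the 12 young libraries it was 0.35 (-0.39 to 0.80). The old libraries share the large step between OCR and the other groups, and all libraries share scaling and depth, so these values only describe the libraries. Kif15 followed the mean of the other members most closely over the diet libraries (r = 0.91) and Kif23 least (r = 0.31). In the 12 transplanted libraries the median pair correlation was 0.84, and 0.67 after group means were removed.

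The genes outside the family whose log2 CPM most resembled the kinesin mean over the 22 diet libraries were, of 12318 compared, Birc5 (r = 0.90), Nusap1 (0.89), Ccnb2 (0.88), Ccna2 (0.87), Tpx2 (0.86), Eldr (0.86), Cdca8 (0.86), Mki67 (0.86), Spag5 (0.85) and Ckap2l (0.85). The median correlation over all genes compared was -0.016, and 28 genes exceeded 0.8.

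The rest of the mitotic apparatus in OCR versus OAL is given from lists of partners, where 2.54% of all genes were called higher. Of 7 other kinesins of mitosis 4 rose, Kifc1 (log2 fold change 1.42), Cenpe (1.35), Kif18a (0.87) and Kif24, which lay between Cenpe and Kif18a. Of 30 transport and ciliary kinesins and their light chains 1 rose, Kif1b (0.35), and their median was -0.0016. Of 13 dynein and dynactin genes Dynll1 rose (0.59) and Dync1i1 fell (-0.98). Among spindle assembly partners 10 of 14 rose, led by Nuf2 (1.70), Spag5 (1.67), Tpx2 (1.66) and Hmmr (1.64), and Mapre3 fell (-0.54). Among central spindle and cytokinesis partners, a list that holds Kif20b as well, 13 of 15 rose, with Cep55 (1.77), Aurkb (1.75), Plk1 (1.73) and Birc5 (1.68) in front. Of 9 condensin and chromosome arm genes 8 rose, with Top2a (1.94), Ncaph (1.60), Ncapg (1.59) and Ncapg2 (1.26) the largest.

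Cell cycle regulators moved with the kinesins. Of 12 cyclins and kinases of G2/M all rose (median log2 fold change 1.39), among them Ccnb2 (2.13), Ube2c (1.95), Mki67 (1.79) and Bub1 (1.68). Of 14 S phase genes 13 rose (median 0.93), with Rrm2 (1.61), Cdc6 (1.38), Ccne1 (1.28) and Mcm5 (1.13) the largest. Of 22 regulators of G2/M transcription 9 rose, led by E2f8 (1.65), Foxm1 (1.40), Mybl2 (1.34) and E2f2 (1.25), and E2f5 fell (-0.40).

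Marker lists of the sorted cells and of cells that a sort could carry moved differently in OCR versus OAL. Of 15 stem cell markers 5 fell, including Fgd5 (-0.50), Ly6a (-0.47), Procr (-0.46) and Mllt3 (-0.42), and Ctnnal1 rose (0.40); their sum was 5837 to 6565 CPM in OAL and 5032 to 5844 CPM in OCR, with Kit the most abundant. Of 5 multipotent progenitor markers edgeR called 0 (1 at an unadjusted p under 0.05, and 1 by DESeq2), with sums of 238 to 285 CPM in OAL and 216 to 287 CPM in OCR. Of 14 erythroid markers Rhag (1.49) and Epor (0.91) rose and 4 fell, with Hbb-bs (-2.22), Hba-a1 (-2.17) and Hba-a2 (-2.13) in front, and Car2 was the most abundant in both groups. Of 11 granulocyte-monocyte markers 1 fell, Prtn3 (-0.41), with 5 at an unadjusted p under 0.05 and 1 called by DESeq2. Their sum was 656 to 799 CPM in OAL and 607 to 655 CPM in OCR, with every OCR library below every OAL library. Of 7 megakaryocyte markers tested edgeR called 0 (3 at an unadjusted p under 0.05, and 0 by DESeq2). Igkc (-7.35) and Jchain (-5.03) fell among 10 lymphoid and plasma cell markers, whose sum was 264, 39.8, 125 and 42.5 CPM in the OAL libraries and 37.1 to 45.3 CPM in the OCR libraries. The part of the marker lists in the kinesin result was not tested. Kdr (-1.14) and Bmpr1a (-0.76), the genes targeted in the knockdown experiment, fell in OCR.

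In the knockdown libraries the targeted genes were read first. Kdr was at 1.93, 2.21, 3.28 and 2.03 CPM in the KdrKD libraries and 6.04 and 6.07 CPM in the KdrScr libraries, and at 1.24, 0.555, 1.60 and 1.35 CPM in the DoubleKD libraries against 3.97 and 4.62 CPM in DoubleScr. Bmpr1a was at 4.44, 0.656, 2.22 and 0.595 CPM in the DoubleKD libraries against 5.21 and 4.43 CPM in DoubleScr. In the KdrKD libraries, which did not target it, Bmpr1a was at 1.67, 3.73, 7.96 and 7.67 CPM against 8.29 and 4.37 CPM in KdrScr. Kdr was lower in every knockdown library than in its scrambled controls, but the difference did not pass edgeR's test over all genes. Its log2 fold change was -1.35 in KdrKD versus KdrScr (SE 0.25, edgeR adjusted p = 0.247) and -1.86 in DoubleKD versus DoubleScr (SE 0.37, edgeR adjusted p = 0.272). EdgeR called 0 of the 2 targets in either comparison, with 1 at an unadjusted p under 0.05 and 1 called by DESeq2 in each. Bmpr1a had a log2 fold change of -1.29 in DoubleKD versus DoubleScr (SE 0.72, edgeR adjusted p = 0.602). It lay below both controls in 3 of the 4 DoubleKD libraries, and replicate 1 of the first Bmpr1a shRNA lay between its controls, but Bmpr1a also lay below both controls in 2 of the 4 KdrKD libraries.

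In libraries with the Kdr shRNA alone kinesin levels lay slightly above the scrambled controls for most members, with no member called by edgeR. In KdrKD versus KdrScr edgeR called 0.0149% of 20098 genes and 0 members (1 without the filter on low counts), and DESeq2 called 3 members, Kif18b, Kif20b and Kif23. At an unadjusted p under 0.05 there were 8 members, and the looser rule with its fold change took 7, beside 2.99% of all genes taken as higher. Kif20b was at 79.2, 86.2, 70.8 and 77.9 CPM in KdrKD and 57.9 and 51.6 CPM in KdrScr. Kif18b was at 41.7, 36.8, 37.3 and 38.1 CPM in KdrKD and 28.7 and 25.1 CPM in KdrScr. Kif23 was at 60.8, 61.3, 57.9 and 64.7 CPM in KdrKD and 50.0 and 43.4 CPM in KdrScr. For these and 5 further members (Kif11, Kif20a, Kif22, Kif2c and Kif4) every knockdown library lay above both controls, a separation seen for 10.6% of all genes with so few controls, while Kif14 and Kif15 overlapped. The log2 fold change was 0.52 for Kif20b (SE 0.10, edgeR adjusted p = 0.252), 0.52 for Kif18b (SE 0.11, edgeR adjusted p = 0.257) and 0.39 for Kif23 (SE 0.0939). All 10 estimates were above 0, from 0.25 (Kif4) to 0.52, and the median was 0.38 beside -0.0023 over all genes. The number of members taken by the looser rule ranged from 3 (without KdrScr replicate 2) to 9 (without KdrKD replicate 3) when single libraries were left out.

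In the double knockdown the kinesin values mostly overlapped those of the controls. In DoubleKD versus DoubleScr edgeR called 0.00498% of 20072 genes and 0 members, and DESeq2 called 0. The looser rule took 1 member, Kif23, beside 2.82% of all genes taken as higher. It took 0 members without replicate 2 of either Bmpr1a shRNA or without DoubleScr replicate 2, and 2 without replicate 1 of the second shRNA. Kif23 was at 74.9, 97.6, 73.6 and 109.5 CPM in the DoubleKD libraries and 70.9 and 59.9 CPM in DoubleScr. It was the only member with every knockdown library above both controls, a separation seen for 10.5% of genes. The log2 fold change of Kif23 was 0.44 (SE 0.17, edgeR adjusted p = 0.462). Kif11 was at 147, 164, 126 and 194 CPM in DoubleKD and 177 and 142 CPM in DoubleScr, and the groups overlapped. Replicate 2 of the second Bmpr1a shRNA was the highest DoubleKD library for all 10 members. The member median was -0.023, with 4 estimates above 0 and 6 below.

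The difference between the double and the single knockdown responses was tested in 1 fit of the 12 libraries, taken as independent. The paper describes infecting cells with both viruses and later sorting single and double knockdown cells, so libraries of different arms may share recipients. The labels name no recipients, so pairing is not known. EdgeR called 0% of 21250 genes and DESeq2 called 3. Neither tool called a member, and the looser rule, which took 3.31% of all genes, took 0. That rule took 4 members without replicate 2 of the second Bmpr1a shRNA, 3 without DoubleScr replicate 2, 2 without KdrKD replicate 3 or KdrScr replicate 1, 2 with the replicate block and 5 without the filter on low counts. Estimates of the difference were below 0 for 9 of 10 members, with a median of -0.39, and Kif23 was nearest to 0 (0.053, SE 0.21). EdgeR called 0 markers of any list, and DESeq2 called 1 lymphoid and plasma cell marker. An unadjusted p under 0.05 was reached by 6 of 11 granulocyte-monocyte, 4 of 14 erythroid and 2 of 15 stem cell markers. It was reached by 1 of 8 lymphoid, 0 of 5 multipotent progenitor and 0 of 6 megakaryocyte markers tested. The part of these markers in the difference was not tested.

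**Figure D3:**
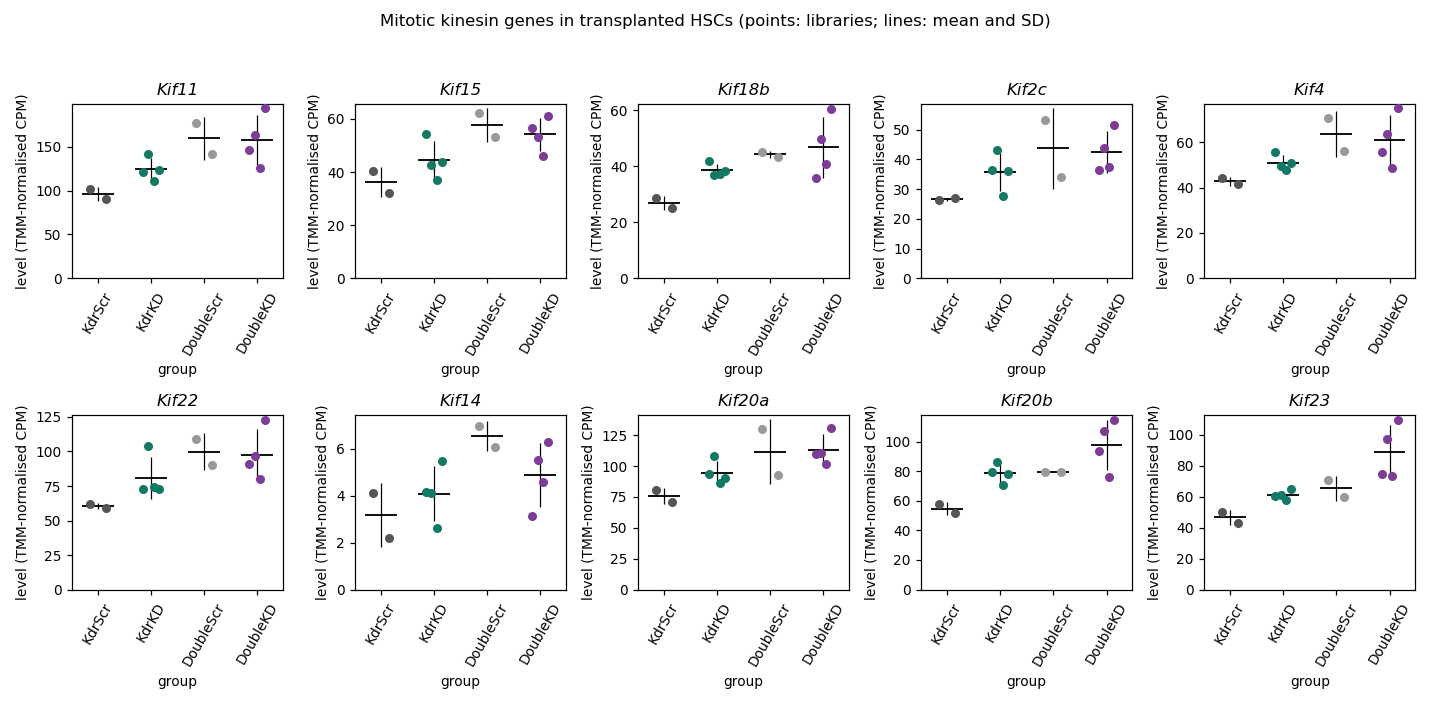
Level of each mitotic kinesin gene in TMM-normalised CPM (vertical axis) in the scrambled and knockdown groups of transplanted HSCs (horizontal axis), with 1 point per library and lines for the mean and SD. KdrKD points lie above both KdrScr points for all kinesins except Kif14 and Kif15, while DoubleKD and DoubleScr points overlap for all except Kif23.

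The summed level of the family was 444 and 496 CPM in KdrScr, 553 to 677 CPM in KdrKD, 657 and 805 CPM in DoubleScr and 635 to 927 CPM in DoubleKD. Mean sums were 470 CPM in KdrScr, 613 CPM in KdrKD and 731 CPM in DoubleScr, so the scrambled groups differed by more than KdrKD and KdrScr. This gap between the controls was not tested. Diet and transplanted libraries were scaled separately, sequenced on different instruments and sorted by different gates, so their levels are not compared. Marker lists were also summed in the transplanted libraries, where edgeR called 0 markers of any list in either comparison. In KdrKD versus KdrScr an unadjusted p under 0.05 was reached by 7 of 15 stem cell markers (5 called by DESeq2), 2 of 5 multipotent progenitor (2), 1 of 13 erythroid (0), 1 of 6 megakaryocyte (1), 4 of 11 granulocyte-monocyte (1) and 3 of 7 lymphoid and plasma cell markers tested (2). In DoubleKD versus DoubleScr the same counts were 1 of 15 (0), 3 of 5 (1), 4 of 14 (1), 0 of 6 (0), 3 of 11 (0) and 1 of 7 (0). Summed over 5 multipotent progenitor markers, of which Cd34 was the most abundant and none was at 0, the level was 593 and 518 CPM in KdrScr, 707, 689, 613 and 719.8 CPM in KdrKD, 659 and 625 CPM in DoubleScr and 889, 1129, 714 and 998 CPM in DoubleKD. Summed over 11 granulocyte-monocyte markers, none at 0, it was 808 and 1741 CPM in KdrScr, 1801, 2949, 1064 and 1995 CPM in KdrKD, 3393 and 2215 CPM in DoubleScr and 911, 1188, 1210.4 and 2583 CPM in DoubleKD, with Lyz2, Mpo or S100a8 the most abundant. Replicate 2 of KdrKD and replicate 2 of the second Bmpr1a shRNA had the highest granulocyte-monocyte sum of their groups. In KdrKD replicate 2 Kif11, Kif20a, Kif20b, Kif22 and Kif2c were the highest of the 4 KdrKD libraries, Kif18b was the lowest and the other 4 members lay between, while the second of these libraries was highest in its group for all 10. The 15 stem cell markers, led by Kit, summed to 4728 and 4898 CPM in KdrScr, 4012 to 4497 CPM in KdrKD, 4127 and 4193 CPM in DoubleScr and 3899 to 4374 CPM in DoubleKD. Megakaryocyte sums over 8 markers were 512 and 468 CPM in KdrScr, 372 to 409 CPM in KdrKD, 361 and 386 CPM in DoubleScr and 258 to 392 CPM in DoubleKD, and lymphoid sums over 10 markers were 31.1 and 39.1, 42.6 to 74.4, 40.4 and 42.7 and 45.9 to 61.4 CPM. Erythroid sums were 1444 and 1658 CPM in KdrScr, 1541 to 2118 CPM in KdrKD, 2043 and 1745 CPM in DoubleScr and 1674 to 2138 CPM in DoubleKD. The stem cell, multipotent progenitor, megakaryocyte and lymphoid sums did not overlap between KdrKD and KdrScr. Between DoubleKD and DoubleScr the multipotent progenitor and lymphoid sums did not overlap, with every knockdown library above both controls. The part of these markers in the kinesin levels was not tested.

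The kinesin promoters were read in the chromatin data of the same diets. In the ATAC-seq data of OCR and OCRRF HSCs, with 123372 peaks tested, each of the 10 members had 1 peak within 500 bases of a transcription start, a distance chosen after seeing the data. In reads per length these peaks ranked from the 51.8 to the 96.7 percentile of all peaks, with a median of 88.0. Kif11 had the highest peak, with 29.7, 29.1, 39.5 and 41.2 CPM in the OCR libraries and 55.0 and 33.0 CPM in the OCRRF libraries. Kif15 had the lowest, with 4.52, 4.35, 6.23 and 4.58 CPM in OCR and 2.93 and 3.98 CPM in OCRRF. OCR and OCRRF values overlapped for Kif11, while both OCRRF libraries lay below all OCR libraries for Kif15.

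No kinesin promoter was called different in accessibility after refeeding. In OCRRF versus OCR, edgeR called 0.221% of peaks (adjusted p under 0.05, fold change over 1.5 and mean log2 CPM over 1.5) and 0 of the 10 member peaks. DESeq2 called 0 of them as well, and gave no adjusted p for Kif15 and Kif22. At an unadjusted p under 0.05 in edgeR there were 11.7% of all peaks and 2 of the 10 member peaks, Kif11 (log2 fold change 0.34, SE 0.12) and Kif15 (-0.51, SE 0.23). The median over the 10 peaks was -0.078, beside -0.0064 over all peaks. The 273 peaks called became 98 without OCRRF replicate 1, 119 without OCRRF replicate 2, 99 without OCR replicate 1 and 139 without OCR replicate 2. ATAC-seq of OAL HSCs was not analysed here.

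Histone marks in OCR HSCs were read as the mean signal per base in windows that run downstream from a RefSeq start, over 750 bases for H3K4me3 and 2000 bases for H3K27me3. H3K4me3, a mark of active promoters, was 67.0 and 44.4 at Kif11, 32.4 and 30.0 at Kif23 and 24.7 and 26.8 at Kif20b in the 2 libraries, beside medians of 10.2 and 9.64 over 31552 promoters. At the 11 member windows whose start lay in or next to the open peak the signal ranged from 6.87 to 67.0, and at the 2 other windows, the only Kif14 window and an alternate Kif2c start, from 0.0769 to 0.223. H3K27me3, a mark of Polycomb silencing, ranged from 0.134 to 0.947 over all 13 member windows, beside medians of 0.312 and 0.316. The study scaled its histone libraries to a common number of reads before peak calling. Whether the window sums come from the scaled libraries was not settled here, so values of different libraries are given side by side. The split by open peak was made after seeing the data.

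Peaks of PU.1, an ETS family transcription factor of blood cells, were found at Kif20b and Kif22. Within 1 kb of a start, or over the gene body, 2 members had a peak in OCR replicate 1, 1 in OCR replicate 2, 1 in OAL replicate 1, and 0 in OAL replicate 2 and in both OCRRF replicates. Of 21924 protein-coding genes 6.50%, 4.49%, 3.67%, 3.37%, 3.18% and 2.57% had a peak at a start in these libraries, in the same order, and the members' counts were not tested against this background. The Kif20b peak, chr19:34922237-34922523, covered the start of the gene and was called only in OCR replicate 1, with a fold enrichment of 8.75 and a −log10 q of 10.4. The Kif22 peak, chr7:127027265-127027499 in OCR replicate 1, had a fold enrichment of 7.74 there, 7.11 in OCR replicate 2 and 7.45 in OAL replicate 1. It lay beyond the 3′ end of the gene, 528 to 626 bases from the start of a short transcript and far from the main promoter. The labels name a Thermo antibody for replicate 1, and the study used a second PU.1 antibody as well, so antibody and replicate may coincide and cannot be told apart. The OAL libraries of this assay are labelled OWT, and each library's peaks were called by itself, so a peak absent from a list is not shown to differ between diets.

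Sequence shared by the promoters was read because the members moved together. RefSeq promoter sequences (build GRCm38.p6, 250 bases before to 50 bases after a start) were matched for 9 of the 10 members; Kif20a had no entry. The cell cycle homology region, a short element of genes that peak in G2 and mitosis, was searched as TTTGAA and as TTCGAA, and the CCAAT box as CCAAT, on both strands, with letters and windows chosen after seeing the data. TTTGAA was found in 9 of 9 member promoters and in 17.9% of all 32851 promoters, and TTCGAA in 0 of 9 and 1.56%. Within the last 100 bases of the promoter TTTGAA was found in 7 of 9 members and 4.94% of all. These 7 are the members whose promoter window overlapped the ATAC-seq peak, while the RefSeq windows of Kif14 and Kif2c did not overlap it. CCAAT was found in 6 of 9 members and 37.4% of all promoters, and both elements in 6 of 9 and 7.52%. TTTNNCGC, an E2F-type element, was found in 1 of 9 members (Kif15) and 5.17% of all, and GAGGAAGT, a PU.1-type element, in 1 of 9 (Kif20b) and 3.20%. A match of letters describes the sequence and does not show that a factor binds there.

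**Figure D4:**
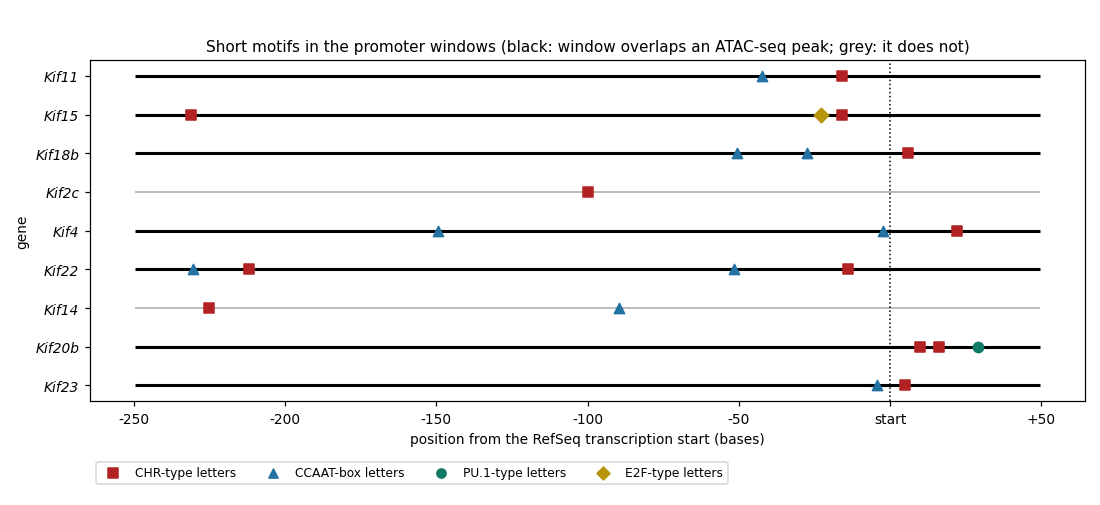
Positions of 4 short elements (symbols) in the promoter windows of 9 mitotic kinesin genes (vertical axis), in bases from the RefSeq transcription start (horizontal axis). Red squares, the cell cycle homology letters, lie near the start in each of the 7 windows that overlap an ATAC-seq peak (black lines), with a further copy upstream in Kif15 and Kif22, and lie only upstream in Kif14 and Kif2c (grey lines).

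The 100 bases around the start, 50 on either side, are shown for those 7 promoters because the shared element lies inside them. Sequences are from RefSeq, build GRCm38.p6, read 5′ to 3′ on the strand of the gene, and capitals mark TTTGAA and CCAAT or their reverse complements. Kif11 is chr19:37376332-37376431 (plus strand), Kif15 is chr9:122951031-122951130 (plus), Kif18b is chr11:102925075-102925174 (minus), Kif20b is chr19:34922308-34922407 (plus), Kif22 is chr7:127042371-127042470 (minus), Kif23 is chr9:61946750-61946849 (minus) and Kif4 is chrX:100626015-100626114 (plus). Each region spans the annotated transcription start and the first transcribed bases of the gene.
Kif11: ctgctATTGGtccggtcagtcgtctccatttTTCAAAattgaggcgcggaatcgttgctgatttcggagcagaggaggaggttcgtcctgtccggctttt
Kif15: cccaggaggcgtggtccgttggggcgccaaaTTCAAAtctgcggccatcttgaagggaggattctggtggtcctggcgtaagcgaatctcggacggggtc
Kif18b: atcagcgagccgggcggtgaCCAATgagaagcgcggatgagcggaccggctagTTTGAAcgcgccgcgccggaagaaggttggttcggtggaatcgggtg
Kif20b: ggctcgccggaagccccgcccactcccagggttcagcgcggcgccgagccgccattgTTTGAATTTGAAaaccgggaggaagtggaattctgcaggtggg
Kif22: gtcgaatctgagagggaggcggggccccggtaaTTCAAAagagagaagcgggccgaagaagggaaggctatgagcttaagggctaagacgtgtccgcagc
Kif23: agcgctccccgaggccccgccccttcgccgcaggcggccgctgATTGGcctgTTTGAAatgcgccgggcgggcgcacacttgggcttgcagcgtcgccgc
Kif4: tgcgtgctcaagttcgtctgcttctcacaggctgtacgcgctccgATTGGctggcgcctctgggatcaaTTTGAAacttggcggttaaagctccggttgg

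TTTGAA began at position -19 in Kif11 and Kif15, -17 in Kif22, 3 in Kif23, 4 in Kif18b, 8 and 14 in Kif20b and 20 in Kif4, counted from the RefSeq start. Further copies, outside the printed bases, began at -234 in Kif15 and -215 in Kif22, and those of Kif14 and Kif2c began at -228 and -103. Kif20b carried 2 adjoining copies, and its GAGGAAGT at chr19:34922383-34922390 lay inside the PU.1 peak of OCR replicate 1. CCAAT lay upstream of TTTGAA in all 4 printed sequences that hold both, Kif11, Kif18b, Kif23 and Kif4.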

How the data were processed

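The authors trimmed RNA reads (trim galore, cutadapt), aligned them with STAR to mm10 with GENCODE annotation and deposited raw counts per gene from featureCounts; strand and multimapping settings are not given in the sources used here. ATAC-seq counts over consensus peaks were deposited by the authors, after BWA alignment. Histone signal was read from the authors' deposited tables as the mean per base in windows downstream of RefSeq starts. PU.1 peaks were called by the authors with MACS2 for each library, and the deposited files give a score, a fold enrichment (ratio to background) and −log10 p and q.

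Counts were tested with edgeR 4.0.16 in R 4.3.3 (filterByExpr by group, TMM, quasi-likelihood test, full library totals kept), and DESeq2 1.42.0 was an alternative. P-values were adjusted over all genes (Benjamini-Hochberg). Log2 CPM used a prior count of 2. Genes were placed with GENCODE M21. Scripts were tested on simulated data. Members and lists were chosen with earlier results of these data known. Named genes were all members; Kdr and Bmpr1a; for each list up to 4 called genes with the largest absolute log2 fold change in OCR versus OAL and at most 3 called against the list's majority; and the 10 other genes, of a mean of at least 5 CPM, best correlated with the member mean over the 22 diet libraries. Alternatives were other scalings, no filter, DESeq2, the replicate block, each library left out and, chosen after seeing the data, library totals summed again after the filter. ATAC-seq and histone libraries of OAL were not analysed here. The results of some markers are not reported here.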

Additional observations from a re-analysis of the deposited data

Results flagged for a closer look

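In groups of 4 libraries, 7 of 80 groups held a library whose gap to its nearest neighbour took up more than the critical share of the group's range; chance gives about 1 in 20 groups. Kif11 in YCR replicate 2 (ratio 0.879) was 41.1 CPM against 27.1 to 28.8 CPM in the others. Kif14 in OCR replicate 4 (ratio 0.923) was 5.49 CPM against 6.30 to 6.36 CPM. Kif22 in YAL replicate 1 (ratio 0.910) was 16.2 CPM against 21.9 to 22.5 CPM, and in KdrKD replicate 2 (ratio 0.959) it was 103.8 CPM against 72.7 to 74.0 CPM. Kif23 in OCR replicate 2 (ratio 0.848) was 42.6 CPM against 33.5 to 34.9 CPM. Kif2c in YCRRF replicate 2 (ratio 0.882) was 7.42 CPM against 4.87 to 5.17 CPM. The ATAC-seq peak of Kif15 in OCR replicate 3 (ratio 0.879) was 6.23 CPM against 4.35 to 4.58 CPM. The cause of these values was not tested.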

How the results depend on the processing

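The number of kinesins called was 10 in OCR versus OAL and 9 in OCRRF versus OCR under each alternative run, with 1054 to 1653 and 352 to 2755 calls over all genes when single libraries were left out. Of 1600 member values recomputed, 1514 kept their direction and side of the threshold, 12 passed it anew, 5 lost it and 69 changed sign; the cause was not tested.

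With DESeq2, calls over all genes were 2352 in OCRRF versus OCR, 3906 in OCRRF versus OAL, 454 in YCR versus YAL (2 members), 280.0 in YCRRF versus YCR (1 member), 15 in YCRRF versus YAL, 207 in the old minus young response (1 member), 303 in KdrKD versus KdrScr (3 members), 332 in DoubleKD versus DoubleScr and 3 in the difference of the knockdowns. DESeq2 size factors in edgeR gave 3215 in OCRRF versus OAL and 1 in YCRRF versus YCR. TMM factors from genes of at least 5 CPM gave 808 in OCRRF versus OAL, 1 in YCRRF versus YCR and 1 member in OAL versus YAL. Without the filter there were 2684 calls in OCRRF versus OAL, 368 in YCR versus YAL (1 member), 275 in YCRRF versus YCR (1 member), 40.0 in YCRRF versus YAL, 6671 in OAL versus YAL, 23 in the old minus young response, 82 in KdrKD versus KdrScr (1 member), 19 in DoubleKD versus DoubleScr and 5 in the difference of the knockdowns. The first Bmpr1a shRNA alone gave 7 calls and the second gave 0.

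Deviations of same-numbered libraries correlated at -0.29 to 0.19. In groups of 2 libraries the deviations mirror each other, so this check cannot settle whether same-numbered libraries share a batch. The replicate block gave 3437 calls in OCRRF versus OCR, 2080.0 in OCRRF versus OAL, 7 in YCR versus YAL, 0 in YCRRF versus YCR, 1651 in OAL versus YAL (1 member, Kif20a not called, edgeR adjusted p = 0.0651), 3 in the old minus young response, 26 in KdrKD versus KdrScr, 0 in DoubleKD versus DoubleScr and 762 ATAC-seq peaks. Estimates that changed sign with the replicate block were Kif23 in OCRRF versus OAL (0.0073), Kif15 (-0.024) and Kif20b (-0.017) in YCRRF versus YAL and Kif14 in the old minus young response (-0.12).

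Other estimates that changed sign in OCRRF versus OAL were Kif22 (-0.052 with DESeq2, -0.051 with its size factors, -0.0045 without the filter), Kif18b (-0.037 with DESeq2 and with its size factors) and, with TMM factors from genes of at least 5 CPM, Kif23 (0.11), Kif20a (0.0014), Kif20b (0.072), Kif11 (0.0036) and Kif4 (0.075). The same factors turned Kif15 in OAL versus YAL (0.028). The second Bmpr1a shRNA alone turned Kif2c (0.032), Kif22 (0.026) and Kif11 (0.0051), and the first turned Kif18b (-0.043) and Kif20a (-0.017).

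Without single libraries, calls ranged from 38 to 386 in OCRRF versus OAL, 6 to 27 in YCR versus YAL, 0 to 10 in YCRRF versus YCR, 0 to 1 in YCRRF versus YAL, 1475 to 5357 in OAL versus YAL (1 to 3 members), 2 to 27 in the old minus young response, 0 to 12 in KdrKD versus KdrScr, 0 to 1 in DoubleKD versus DoubleScr and 98 to 368 ATAC-seq peaks. Where this left 1 library in OCRRF or in a scrambled group, that library was assumed to vary like the other groups. Log2 fold changes that crossed 0 were, in OCRRF versus OAL, Kif22 (-0.14 to 0.13), Kif23 (-0.12 to 0.033), Kif18b (-0.15 to 0.14), Kif20b (-0.17 to 0.0098) and Kif11 (-0.21 to 0.0045). In the young comparisons they were Kif23 (-0.24 to 0.036) and Kif4 (-0.029 to 0.54) in YCR versus YAL, Kif18b (-0.60 to 0.14) in YCRRF versus YCR, and Kif14 (-0.043 to 1.34), Kif2c (-0.55 to 0.16), Kif15 (-0.26 to 0.16) and Kif20b (-0.14 to 0.16) in YCRRF versus YAL. Across ages they were Kif11 in OAL versus YAL (-0.36 to 0.14) and Kif14 in the old minus young response (-0.95 to 0.67). In the knockdowns they were Kif14 in KdrKD versus KdrScr (-0.017 to 0.90), Kif23 in the difference of the knockdowns (-0.064 to 0.18) and, in DoubleKD versus DoubleScr, Kif2c (-0.32 to 0.31), Kif22 (-0.16 to 0.11), Kif15 (-0.19 to 0.021), Kif18b (-0.065 to 0.19), Kif20a (-0.19 to 0.28), Kif11 (-0.16 to 0.15) and Kif4 (-0.21 to 0.11). Young libraries held 11102898 to 36579392 counts, with 5 to 205 counts of Kif14. Library totals summed again after the filter, an alternative chosen after seeing the data, gave 48 calls in YCR versus YAL and 12 in the old minus young response.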

Other observations

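The partner lists were also read in OCRRF versus OCR, where 2.71% of all genes were called lower. Of 14 S phase genes all fell (median log2 fold change -1.09), as did 10 of 12 cyclins and kinases of G2/M (median -1.55), among them Ccnb2 (-1.97), Bub1 (-1.93) and Mki67 (-1.76). Of 15 central spindle and cytokinesis partners 13 fell (median -1.25), of 14 spindle assembly partners 11 (median -1.20), of 9 condensin and chromosome arm genes 8 (median -1.03) and of 22 regulators of G2/M transcription 9 (median -0.37). Of 7 other kinesins of mitosis 3 fell, Kifc1 (-1.41), Cenpe (-1.24) and Kif18a (-0.80). Of 30 transport and ciliary kinesins edgeR called 0 (3 at an unadjusted p under 0.05, and 1 by DESeq2), and of 13 dynein and dynactin genes it called 0 (2 at an unadjusted p under 0.05, and 0 by DESeq2). These values share the OCR libraries with those of OCR versus OAL.

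In OAL versus YAL, where 7.93% of all genes were called lower, 11 of 14 S phase genes fell (median -0.76), 7 of 22 regulators of G2/M transcription fell and 1 rose (Rb1), 3 of 9 condensin and chromosome arm genes fell (Ncapd2, Ncaph2 and Top2a), and 3 of 12 cyclins and kinases of G2/M fell (Ccnb1, Cdc20 and Cdk1). Of 14 spindle assembly partners 2 fell (Dlgap5 and Tacc3), and of 15 central spindle and cytokinesis partners 1 fell (Ect2). Of 30 transport and ciliary kinesins and their light chains 4 rose (Kif12, Kif13b, Kif26b and Klc2) and 1 fell (Kif17). EdgeR called 0 of 6 other kinesins of mitosis (1 at an unadjusted p under 0.05, and 0 by DESeq2) and 0 of 13 dynein and dynactin genes (4 and 1). All of these genes were named after their values were seen. The marker lists that moved in the same comparison, and the numbers of genes with counts, are given with the kinesins above. Their part in these values was not tested.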
